A study of Homo sapiens with 8 samples.

Results

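The parental Alexander1 line is described here by the genes it expressed in 4 RNA sequencing libraries. A gene was taken as expressed when it reached a CPM of at least 1 (counts-per-million, a gene's counts scaled by the library's total) in each of the 4 libraries. Of 58206 genes in the deposited count table, 12512 met this rule, or 21.5% of all genes. Among protein-coding genes 11251 of 19775 met it, or 56.9%.

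Alexander1 (ATCC CRL-8024) is an established epithelial line from a human hepatocellular carcinoma. The labels give the 4 libraries the genotype "wt (Axin1 -)" and describe a line whose Axin1 has lost the region that binds the kinase GSK3 and whose Wnt pathway is always on, so "wt" here means the untransduced parent and not an intact Axin1. The other 4 libraries of the 8 in the series come from a clonally selected derivative carrying Axin1 from a retroviral plasmid and are not used here. The treatment text, retroviral transfer and hygromycin selection, is attached to all 8 samples alike, although the parental genotype names no plasmid. Cells grew in DMEM with 10% fetal bovine serum, total RNA was taken from columns, and an mRNA kit was used for the libraries. Nothing in the labels says that the 4 libraries came from separate cultures, so the spread between them may be technical.

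Hepatocytes secrete most plasma proteins, clear ammonia through the urea cycle, make bile acids and oxidise drugs with cytochromes P450. A network of liver transcription factors, with HNF4A, the FOXA factors and C/EBP proteins among its members, maintains these functions. Axin1 is the scaffold on which GSK3 marks beta-catenin for destruction, and in liver active beta-catenin favours genes of the hepatocytes around the central vein.

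The 4 libraries held 12563249, 15263761, 11232951 and 13655497 counts in replicates 1 to 4, so that 1 CPM stood for between 11.2 and 15.3 counts. A count of 0 allows up to 3 counts, which is at most 0.267 CPM in any library, and covers counting error only. Levels of different genes are compared below only as transcripts-per-million values (TPM), computed from the counts and each gene's exon length, and are given as mean ± SD over n = 4 libraries. Replicate 1 stood apart from the others in many genes, as described after the levels. Each value is therefore given library by library where a result turns on it.

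AXIN1 itself (chromosome 16, 287440 to 352673, minus strand, GRCh38) measured 21.0, 23.4, 22.3 and 26.1 TPM in replicates 1 to 4. The libraries lay close together. A count per gene does not show which exons the reads covered, so this value cannot check the deletion named in the labels.

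Promoters of 4 secreted-protein genes of the line are shown because they share a run of letters that was more frequent in promoters of such genes than in all promoters. They are the 160 bases before the RefSeq transcription start on GRCh38.p14, written 5′ to 3′ on the gene's strand. Capitals mark the letters GTTAAT, read on either strand (ATTAAC on the other), and the TATA box letters TATAAA, also searched on both strands. No marked sites overlap. The RefSeq table holds 2 windows each for FGB and SERPINA1, and the one with more matches is shown.
AFP, chr4:73436061-73436220, plus strand: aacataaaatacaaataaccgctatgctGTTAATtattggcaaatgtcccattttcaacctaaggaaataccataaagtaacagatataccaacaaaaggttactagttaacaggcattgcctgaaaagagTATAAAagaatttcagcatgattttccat
ALB, chr4:73404127-73404286, plus strand: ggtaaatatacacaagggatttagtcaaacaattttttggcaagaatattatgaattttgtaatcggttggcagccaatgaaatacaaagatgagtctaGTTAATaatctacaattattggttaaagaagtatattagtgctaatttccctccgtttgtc
FGB, chr4:154562851-154563010, plus strand: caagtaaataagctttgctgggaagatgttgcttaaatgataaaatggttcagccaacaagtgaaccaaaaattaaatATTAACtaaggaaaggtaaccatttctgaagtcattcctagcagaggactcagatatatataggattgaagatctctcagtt
SERPINA1, chr14:94388603-94388762, minus strand: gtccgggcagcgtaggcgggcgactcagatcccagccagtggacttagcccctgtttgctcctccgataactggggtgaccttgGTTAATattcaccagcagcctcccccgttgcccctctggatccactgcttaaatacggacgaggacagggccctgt

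The match to GTTAAT began 132 bases before the start in AFP, 61 in ALB, 82 in FGB and 76 in SERPINA1. Over windows from 250 bases before to 50 after the start, GTTAAT was present in 2417 of 35116 RefSeq promoters, or 6.88%. It was present in 15 of 52 windows of expressed genes from the 4 secreted-protein lists described next, or 28.8%, and in 6 of 30 windows of listed genes that were not expressed, or 20.0%. Of the 88 genes on these lists, 62 had a window. TATAAA was present in 11.5% of all windows, in 8 of the 52 and in 7 of the 30. These are matches of letters, not measured binding.

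The 20 protein-coding genes with the highest mean levels mixed housekeeping and liver genes. FTL, the light chain of the iron store ferritin, was first at 48628 ± 7703 TPM. TMSB10, an actin-binding peptide gene, followed at 12940 ± 3006 TPM, and FTH1, the ferritin heavy chain, at 12792 ± 4745 TPM. Ferritin genes have many processed pseudogenes, so their counts depend on how shared reads were assigned.

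Hepatocyte products and enzymes took 7 of these 20 places, among them IGFBP1, a binding protein of insulin-like growth factors, at 6088 ± 1870 TPM. SERPINA1, the inhibitor of neutrophil elastase in plasma, had 10920 ± 1277 TPM. APOE, APOA2, AMBP and RBP4 had mean levels between 4435 and 5249 TPM, as carriers of lipids or retinol and, for AMBP, the precursor of bikunin. ASS1, a urea cycle enzyme, had 3916 ± 418 TPM. The remaining places included GAPDH, ACTB, EEF1A1, GSTP1 and the ribosomal protein genes RPS12, RPL19 and RPS18.

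NTS, which encodes the gut and brain peptide neurotensin, was also among the 20, at 6631, 6170, 5484 and 4175 TPM in replicates 1 to 4. It was above 4000 TPM in every library. CRH, the gene of corticotropin-releasing hormone, was outside the 20 but measured 1130, 3522, 2535 and 2442 TPM. It was lowest in replicate 1 and highest in replicate 2. CRH was picked out after its level was seen.

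Across the 12492 expressed genes with a length in the annotation, the median of the mean levels was 18.4 TPM, with quartiles of 6.85 and 50.1 TPM. A mean of at least 100 TPM was reached by 1634 genes, or 13.1%, which together held 73.6% of all TPM. Only 6 genes passed 10000 TPM. The pseudogenes MTND1P23 and MTATP6P1, with 12353 ± 3764 and 10234 ± 1881 TPM, were 2 of them. They copy mitochondrial genes almost exactly, and the mitochondrial chromosome's own genes were not analysed here.

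Liver identity was read from 10 lists with 214 different genes. Of these, 130 were expressed, or 60.7% beside 56.9% of all protein-coding genes, and 54 reached 100 TPM. Another 44 had at most 3 counts in every library, of which 16 had 0. Within the same lists, high levels and absent transcripts thus stood side by side. The lists and members were chosen with earlier results of these data known, so the counts are descriptions. Counts of expressed members, here and in all lists below, are to be read beside that 56.9%.

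**Figure D1:**
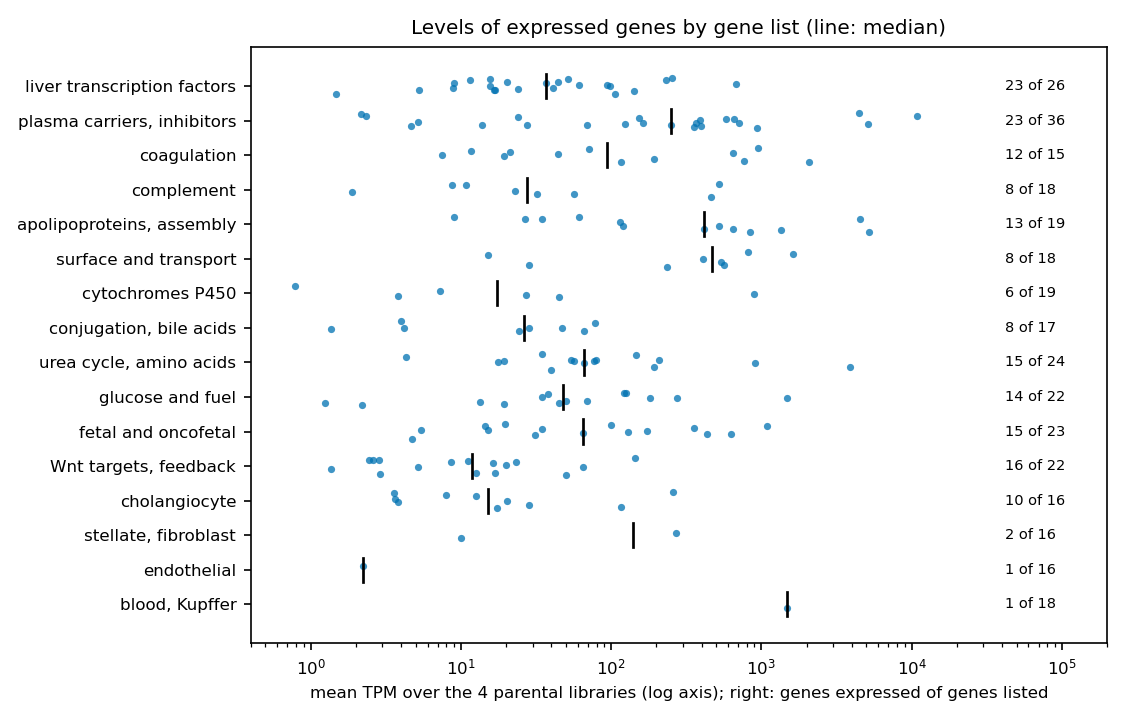
Mean TPM over the 4 parental libraries for each expressed gene of 16 lists (points, log axis), with the median of the expressed genes as a black line and the number expressed of the number listed at the right. Median levels were highest among the larger liver lists for surface and transport genes (471 TPM) and apolipoproteins (418 TPM), while only 6 of 19 cytochrome P450 genes and 1 of 16 endothelial markers were expressed.

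Transcription factors of the liver were the most complete liver list, with 23 of 26 expressed and a median of 36.7 TPM among those 23. CEBPB, an inducible C/EBP factor, was highest at 674 ± 81.1 TPM, followed by CREB3L3, a liver factor of lipid metabolism and fasting, at 255 ± 73.7 TPM and CEBPA at 232 ± 36.6 TPM. HNF4A, a central hepatocyte regulator, measured 88.7, 133, 164 and 181 TPM in replicates 1 to 4. Replicate 1 was lowest. FOXA2, FOXA3, HHEX, GATA4 and NR0B2 had means between 41.4 and 97.9 TPM. Also expressed were FOXA1 and ONECUT1, which biliary cells use too. The 3 factors outside the rule were GATA6 with 1 count in each library, and the xenobiotic receptors NR1I2 (PXR) and NR1I3 (CAR) with at most 2 and at most 4 counts. NR1H4 (FXR), the bile acid receptor, was among the genes nearest the threshold, with 23, 29, 17 and 14 counts.

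Plasma carriers and protease inhibitors were expressed in 23 of 36 cases, with a median of 250 TPM and 15 members at 100 TPM or more. Besides SERPINA1, AMBP and RBP4, the list was led by A2M, a broad protease inhibitor, at 931 ± 179 TPM and ORM1, an acute-phase protein, at 710 ± 428 TPM. VTN, which encodes vitronectin, had 578 ± 37.6 TPM.

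ALB and AFP lie next to each other on chromosome 4 (ALB from 73397114 to 73421412, AFP from 73431138 to 73456174, plus strand) and encode serum albumin and its fetal counterpart. ALB measured 39.4, 192, 216 and 170 TPM in replicates 1 to 4. AFP measured 468, 307, 301 and 358 TPM. AFP was above ALB in each of the 4 libraries. Replicate 1 was the lowest for ALB and the highest for AFP.

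Other major plasma genes were low or absent. TTR, the thyroxine carrier, measured 1.69, 7.40, 3.93 and 7.65 TPM. CRP, an acute-phase protein, had 4.69 ± 2.20 TPM and HPX, which binds heme, 2.17 ± 0.545 TPM. Several members had at most 3 counts in every library. They included HP (haptoglobin), SAA1 and SAA2 (serum amyloid A), HAMP (hepcidin) and FETUB, and SERPINA3 and SERPINA7 had 0. SERPINC1, the antithrombin gene, was outside the rule with 55, 45, 40 and 11 counts.

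Coagulation genes were expressed in 12 of 15 cases. The fibrinogen chains, FGA at 2074 ± 144 TPM, FGB at 949 ± 204 TPM and FGG at 767 ± 141 TPM, headed this list, followed by prothrombin (F2) at 644 ± 114 TPM and factor X (F10) at 193 ± 17.2 TPM. FGA measured 2112, 1931, 1994 and 2257 TPM in replicates 1 to 4 and was among the steadier liver genes. Factor IX (F9) had 0 counts in all 4 libraries and plasminogen (PLG) at most 2.

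Complement was split. C3 had 522 ± 59.6 TPM and C8G, a subunit of the membrane attack complex, 459 ± 23.0 TPM, with C5, C8A and C8B between 23.1 and 56.3 TPM. In all, 8 of 18 genes were expressed. CFB and C6 had 0 counts, and C4A, C4B and C9 at most 5 counts in any library. C4A and C4B are near-identical copies, so their reads may not be assigned to either.

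Apolipoprotein and lipoprotein assembly genes were expressed in 13 of 19 cases. After APOE and APOA2 came APOA1 at 1359 ± 334 TPM, APOB at 839 ± 242 TPM and APOM at 653 ± 99.6 TPM. MTTP, which loads lipid onto APOB, had 61.0 ± 22.5 TPM. APOC2 had at most 2 counts, and LPA had 0. APOM shares exon bases with BAG6 on the other strand, and APOE and APOC1 with an unnamed gene on their own strand.

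Surface and transport genes held both high and absent members. TM4SF5, a tetraspanin-like membrane protein, had 1624 ± 158 TPM. The asialoglycoprotein receptor genes ASGR2 and ASGR1, which clear plasma glycoproteins, had 820 ± 53.9 and 563 ± 67.3 TPM. ABCC2, the canalicular exporter of conjugates, had 406 ± 46.2 TPM and GJB1, a liver gap junction protein, 235 ± 87.8 TPM. In contrast 5 transporters had 0 counts in every library. These were the bile salt importer SLC10A1, the bile salt exporter ABCB11, the phospholipid exporter ABCB4 and the sterol exporters ABCG5 and ABCG8. In all, 8 of 18 members were expressed.

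Cytochromes P450 were expressed in 6 of 19 cases, below the 56.9% of all protein-coding genes. CYP1A1, which metabolises aromatic hydrocarbons, measured 667, 632, 1059 and 1193 TPM in replicates 1 to 4. Replicates 3 and 4 lay above replicates 1 and 2. CYP2B6 had 44.8 ± 4.32 TPM, although its reads may be shared with the pseudogene CYP2B7P, and CYP27A1, a sterol hydroxylase, 27.3 ± 8.21 TPM. CYP3A5 measured 17.5, 3.65, 4.59 and 3.13 TPM in replicates 1 to 4. Several other adult drug enzymes were nearly silent. CYP3A4 had at most 7 counts, CYP1A2 at most 1 and CYP2A6 0, and CYP7A1, the rate-limiting enzyme of bile acid synthesis, also had 0.

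Conjugation and bile acid enzymes reached no mean of 100 TPM. BAAT, which joins bile acids to amino acids, was highest at 78.0 ± 8.76 TPM, and UGT2B4, a glucuronosyltransferase, had 65.7 ± 29.3 TPM. In all 8 of 17 were expressed, and SULT2A1, UGT2B15, GSTA2 and NAT2 had at most 10 counts in any library.

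Urea cycle and amino acid genes were expressed in 15 of 24 cases but did not form a whole cycle. ASS1 measured 4369, 4034, 3899 and 3364 TPM and CPS1, the mitochondrial entry enzyme, 671, 902, 1070 and 1005 TPM. ASL, the next enzyme after ASS1, had 77.5 ± 9.24 TPM. The other 2 cycle enzymes were below the threshold, OTC with 3, 6, 2 and 8 counts and ARG1 with 11, 21, 11 and 13 counts. Of the tyrosine enzymes, HGD had 208 ± 48.7 TPM and TAT 4.30 ± 0.381 TPM. AGXT, BHMT, GNMT, NAGS and TDO2 had at most 3 counts in every library.

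In fuel metabolism, PKM, the pyruvate kinase of most tissues, had 1234 ± 130 TPM against 50.4 ± 21.7 TPM for the liver form PKLR. ALDOA, an aldolase of most tissues, had 1794 ± 180 TPM, and the hexokinases HK1 and HK2 had 4.34 ± 1.08 and 10.8 ± 2.82 TPM.

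In gluconeogenesis FBP1 had 0 counts, while G6PC1, which releases free glucose, had 182 ± 51.6 TPM, the mitochondrial PCK2 275 ± 24.9 TPM and the cytosolic PCK1 19.3 ± 3.68 TPM. ALDH1A1, an aldehyde dehydrogenase, measured 748, 1440, 1804 and 1968 TPM and was lowest in replicate 1. All 15 listed glycolytic and related isoforms were expressed, against 14 of 22 genes (63.6%) of the liver fuel list. Of all protein-coding genes 56.9% were expressed.

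Fetal and oncofetal genes were expressed in 15 of 23 cases (65.2%), beside 56.9% of all protein-coding genes. MDK, the growth factor midkine, was the highest at 1099 ± 56.3 TPM and GPC3, the glypican used as a marker of liver cancer, had 631 ± 125 TPM. CD24 had 437 ± 149 TPM. The RNA-binding proteins IGF2BP1, IGF2BP2 and IGF2BP3 had means of 99.6, 173 and 15.3 TPM, and LIN28B, a blocker of let-7 processing, 31.1 ± 11.6 TPM.

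PEG10, an imprinted gene, measured 26.3, 136, 138 and 219 TPM in replicates 1 to 4 and was lowest in replicate 1. H19, an imprinted RNA of fetal liver, measured 52.1, 143, 52.0 and 14.5 TPM and was among the most variable genes of the line. Its neighbour IGF2 had at most 1 count, DLK1 at most 4 and PEG3 0. TERT, the catalytic subunit of telomerase, had 4.73 ± 2.05 TPM.

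**Figure D2:**
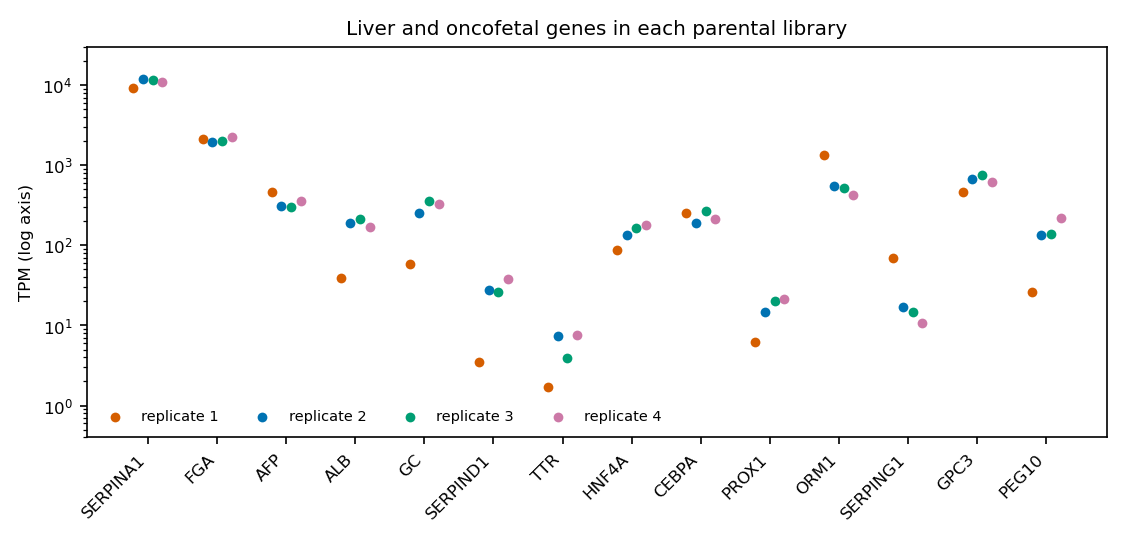
TPM of 14 liver and oncofetal genes in parental replicates 1 to 4 (one point per library, log axis). SERPINA1 and FGA lay close together in all 4 libraries, AFP lay above ALB in each, and replicate 1 was low for ALB, GC, SERPIND1 and PEG10 and high for ORM1 and SERPING1.

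Markers of other cell types checked the labelled origin. Of 16 endothelial markers 1 was expressed, PECAM1 at 2.22 ± 0.494 TPM, and the whole list summed to between 64 and 79 counts in a library. FLT1, TEK, TIE1, ERG, CLEC4G and CLEC4M had 0. Of 18 blood and Kupffer cell markers LYZ alone was expressed, and the others had at most 8 counts. CD3E, MS4A1, NKG7, CD163, MARCO, C1QB, CSF1R and HBB had 0. The list summed to between 4745 and 12756 counts, nearly all of them from LYZ.

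Stellate and fibroblast markers were expressed in 2 of 16 cases, VIM at 270 ± 42.5 TPM and TAGLN at 9.96 ± 5.89 TPM. The list summed to between 4862 and 6943 counts, again mostly from VIM, and LUM, PDGFRA and FAP had 0. COL1A1 had 23, 9, 11 and 11 counts. Simple epithelial keratins were high, with KRT18 at 2005 ± 301 TPM and KRT8 at 1198 ± 110 TPM, though these neighbours share exon bases on opposite strands. EPCAM had at most 5 counts. In bulk RNA, fewer cells of a type and less RNA per cell cannot be told apart.

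Cholangiocyte markers were expressed in 10 of 16 cases (62.5%), beside 56.9% of all protein-coding genes, at a median of 15.1 TPM. SLC4A2, an anion exchanger found well beyond bile ducts, led at 260 ± 40.6 TPM, and SOX9 had 17.5 ± 1.12 TPM. The duct keratins KRT19 and KRT7 measured 20.6, 5.67, 3.76 and 1.99 TPM and 8.60, 2.25, 2.68 and 1.64 TPM in replicates 1 to 4. Replicate 1 was highest for both.

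Genes of the gut were present in part. LYZ, which is shared with the blood list, had 1483 ± 548 TPM. VIL1, a brush border protein, had 76.4 ± 14.2 TPM, CDH17, an intestinal cadherin, 26.8 ± 15.3 TPM and CDX2, the intestinal master regulator, 18.7 ± 6.36 TPM. Of 18 markers of other endodermal organs 6 were expressed and 12 were not, 10 of them with at most 3 counts in every library. The gut genes CDX1, LGALS4, MUC2, TFF1 and TFF3 were also on this list, and most of these were not expressed. The pancreatic and lung genes PRSS1, CPA1, INS, GCG, NKX2-1, SFTPB and SFTPC had 0 counts.

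Cancer-testis antigens, which are normally silent outside the germ line, were expressed in 8 of 20 cases. CTAG2 measured 484, 475, 491 and 521 TPM, and its copy CTAG1B had 0 counts. MAGEA4 had 384 ± 143 TPM and MAGEA3 172 ± 49.6 TPM, though MAGEA3 and MAGEA6 are near-identical copies. A list of hormone and ectopic genes, which held IGFBP1 but not NTS or CRH, had 6 of 16 members expressed. On it CGA, the common alpha subunit of pituitary and placental hormones, had 224 ± 53.1 TPM. Its placental partners CGB3 and CGB5 had 0 counts.

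Wnt pathway genes were mostly low on the TPM scale. Of 22 genes 16 were expressed at a median of 11.9 TPM, below the 18.4 TPM of all expressed genes. CCND1, which encodes cyclin D1, measured 135, 153, 151 and 138 TPM and was the only member above 100 TPM. CTNNB1, beta-catenin itself, measured 23.1, 46.3, 63.5 and 66.7 TPM. The kinase genes GSK3A and GSK3B had 64.7 ± 4.86 and 17.0 ± 2.48 TPM.

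Feedback genes that active beta-catenin induces in many tissues were uneven. AXIN2 measured 0.824, 2.75, 3.42 and 2.76 TPM, and LGR5, a receptor of R-spondins, 2.60, 8.81, 10.4 and 12.7 TPM. Replicate 1 was lowest for both. RNF43 and ZNRF3, ligases that remove Wnt receptors, had 16.5 ± 1.92 and 11.2 ± 5.37 TPM. NKD1 and NOTUM had at most 8 and 7 counts, and DKK1 and TNFRSF19 had 0. Of the transcription factors, LEF1 had 20.1 ± 8.52, TCF7L2 12.7 ± 2.11 and TCF7 2.61 ± 0.752 TPM.

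Zonation markers were expressed in 10 of 16 pericentral (62.5%) and 9 of 16 periportal cases (56.25%), near the 56.9% of all protein-coding genes. The pericentral ammonia enzymes OAT and GLUL had 253 ± 101 and 66.2 ± 15.3 TPM, and TBX3, a beta-catenin target in liver, 36.7 ± 19.2 TPM. CYP2E1 had 0.791 ± 0.533 TPM, and CYP1A2, RHBG and SLC13A3 had at most 1 count. The periportal list was led by ASS1, CPS1 and G6PC1, given above.

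All 26 listed ribosomal protein genes met the rule, a part of the family that leaves out RPS12. So did all 18 listed genes of the unfolded protein and integrated stress responses. Of the listed proliferation genes 26 of 27 met it, and of the cholesterol synthesis genes 19 of 20. Of the metallothionein and NRF2 list, 13 of 19 genes were expressed. HMOX1, heme oxygenase, had 1474 ± 200 TPM and NQO1, another NRF2 target, 534 ± 34.2 TPM. Interferon response genes were expressed in 8 of 20 cases, led by ISG15 at 128 ± 61.4 TPM, and IRF7, RSAD2, MX2 and IFI44L had 0 counts. ITGB1, the integrin named in the series' title, had 239 ± 92.1 TPM. It measured 106, 257, 319 and 273 TPM in replicates 1 to 4 and was lowest in replicate 1.

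The spread between the 4 libraries exceeded counting error in most genes. The coefficient of variation (CV, the SD over the mean) had a median of 20.3% and quartiles of 13.1% and 29.4%, where counting alone would give a median of 5.29%. It was above the counting value in 94.1% of expressed genes. A CV of at least 50% was found in 390 genes, and in 3301 genes the highest library was at least 2 times the lowest.

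Without replicate 1 the median CV was 12.3% and 51 genes reached a CV of 50%. The biological coefficient of variation estimated by edgeR was 0.228 with all libraries and 0.133 without replicate 1.

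**Figure D3:**
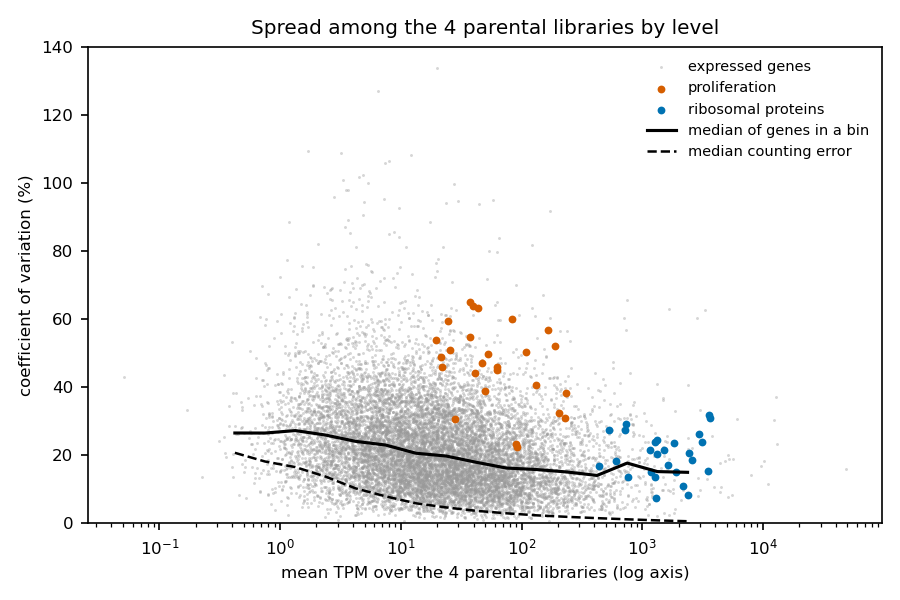
Coefficient of variation over the 4 parental libraries against mean TPM (log axis) for each expressed gene, with the median per bin of level (solid line) and the median counting error (dashed line). Proliferation genes lay mostly above the solid line, and the median of the spread stayed above counting error at every level.

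The steadiest genes of at least 100 TPM included SAP18, a corepressor and splicing subunit, at 171, 170, 168 and 171 TPM (CV 0.779%), below what counting alone would give. ENO1, a glycolytic enzyme, had a CV of 2.38% and PABPC1, the poly(A)-binding protein, 2.21%. SSU72, DYNC1I2, OXA1L and NCBP2AS2 were also among the 8 lowest. These were picked by their CV.

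Of the 12 genes of at least 20 TPM with the highest CV, 11 were highest in replicate 1. A single low library raises the CV less than a single high one, so this ranking favours genes with a high library. Of the 390 genes with a CV of at least 50%, replicate 1 was highest in 205 (52.6%) and lowest in 176 (45.1%). Of all expressed genes it was highest in 19.2% and lowest in 61.0% in TPM. SERPING1, the C1 inhibitor, measured 69.1, 16.8, 14.5 and 10.6 TPM (CV 99.7%), and LCN2, an iron-scavenging acute-phase protein, 142, 32.5, 34.1 and 25.5 TPM. C5AR1, a complement receptor, CDA, cytidine deaminase, and TMSB4X, an actin-binding peptide gene, followed the same order of replicate 1 above the rest. ORM2, FMNL1 and the noncoding UCA1, LINC01564, ZBTB46-AS2 and ENSG00000261829 did too, and H19 was the exception, with replicate 2 highest. ORM1 and ORM2 are near-identical copies and can share reads.

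Pairs of libraries differed by a median absolute log2 ratio of TPM between 0.175 and 0.225 among replicates 2, 3 and 4, and between 0.398 and 0.517 in the pairs with replicate 1. More than 2-fold differences were seen in 81 to 227 genes and in 1355 to 2411 genes, respectively. In every pair the chi-square per degree of freedom was 10.1 or more, above what counting alone gives, so none was taken as a repeated deposit of 1 library. This does not show that they came from separate cultures.

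Replicate 1 was the lowest of the 4 in TPM in 7623 genes, or 61.0%, and the highest in 2402, or 19.2%. Replicate 4 was the highest in 5031, or 40.3%. The median log2 ratio of replicate 1 to the mean of the other 3 was -0.34 in TPM and -0.10 in CPM scaled by TMM factors, so list shifts are read against these medians and given on both scales. Replicate 1 also differed in composition. Its 100 most abundant genes took 28.6% of counts against 21.2% to 23.4% elsewhere, protein-coding genes took 96.5% against 97.6% to 98.0%, and lincRNA and antisense genes 1.85% against 0.873% to 1.11%. With genes split by GC content into 4 equal bins, the median TPM ratio ran from -0.60 in the lowest bin to -0.13 in the highest. The part of RNA quality, GC content or culture in these differences was not tested.

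Proliferation genes differed most evenly between the libraries. In all 26 expressed members replicate 1 was lowest, and replicate 4 was highest in 25, in TPM and in TMM-scaled CPM alike. Beside these, 61.0% and 40.3% of all expressed genes did so in TPM, and 44.6% and 29.6% in TMM-scaled CPM. MKI67, the Ki-67 antigen, measured 18.0, 33.2, 31.4 and 76.7 TPM in replicates 1 to 4. CCNA2, which encodes cyclin A2, measured 6.33, 38.9, 38.4 and 65.5 TPM, and PCNA, the replication clamp, 108, 259, 253 and 319 TPM. Replicates 2 and 3 were nearly level in all 3 genes and lay between the other libraries.

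The median log2 ratio of replicate 1 to the other libraries over the proliferation list was -1.43 in TPM and -1.19 in TMM-scaled CPM, and that of replicate 4 was 0.95 and 0.85. After the median shift of genes of like GC content and length was subtracted, replicate 1 was at -1.12 and replicate 4 at 0.83. The list's median CV was 48.0%, and 28.6% without replicate 1.

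Ribosomal protein genes showed the opposite order. Replicate 1 was highest in 25 of the 26 listed genes in TPM and in 26 of 26 in TMM-scaled CPM, beside 19.2% and 32.8% of all expressed genes. Its median log2 ratio was 0.52 and 0.75. RPL19 measured 5263, 3259, 3100 and 2802 TPM, and RPS18 5199, 3467, 3223 and 2499 TPM. Replicate 4 was lowest in both.

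**Figure D4:**
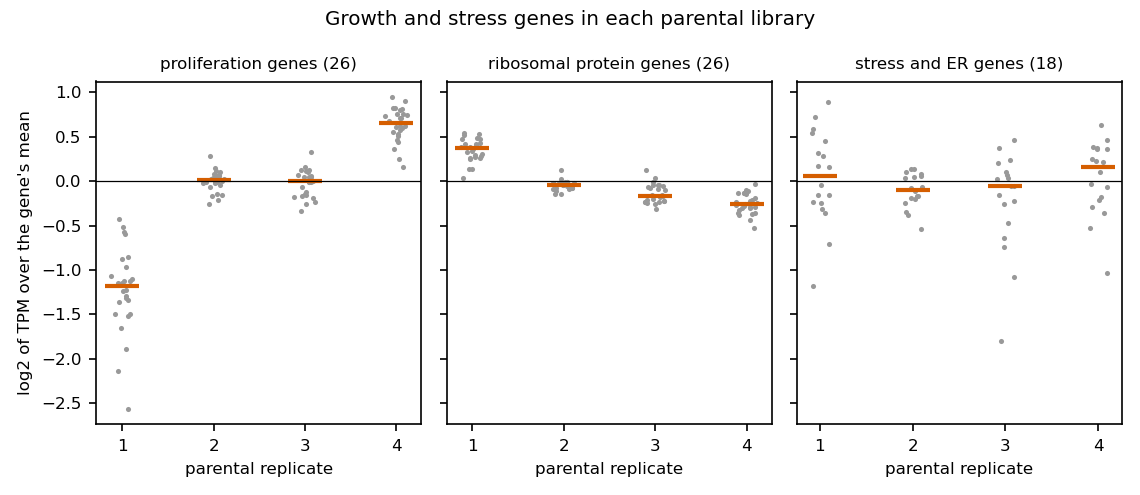
The log2 of TPM over the gene's own mean in each parental replicate, with one grey point per expressed gene and library and an orange bar at the median, for 26 proliferation, 26 ribosomal protein and 18 stress and ER genes. Proliferation genes were lowest in replicate 1 and ribosomal protein genes highest there, while stress and ER genes scattered in both directions.

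The listed genes of the unfolded protein and integrated stress responses were uneven. HSPA5, the chaperone BiP, measured 5309, 1971, 2749 and 1393 TPM and CALR, calreticulin, 5198, 3399, 3654 and 2966 TPM. HSP90B1 and SDF2L1 were likewise highest in replicate 1. PSAT1, a serine synthesis enzyme, measured 257, 625, 753 and 694 TPM and was lowest there. The list median for replicate 1 was 0.08 in TPM and 0.32 in TMM-scaled CPM.

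Cholesterol synthesis genes were lowest in replicate 1 in 18 of 19 cases in TPM and in TMM-scaled CPM. Beside this stood 61.0% and 44.6% of all expressed genes on these scales. The list's median log2 ratio was -0.95 in TPM and -0.71 in TMM-scaled CPM. MSMO1, a sterol methyl oxidase, measured 14.3, 50.1, 54.1 and 32.7 TPM. After the shift of genes of like GC content and length was subtracted, the list stood at -0.46.

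Among the liver and zonation lists, the pericentral markers had the largest low shift of replicate 1. It was -1.15 in TPM and -0.91 in TMM-scaled CPM. On both scales 8 of 10 of these genes were lowest in that library, beside 61.0% and 44.6% of all expressed genes. The periportal markers stood at -0.05 and 0.19, above the medians of all genes, -0.34 and -0.10. Replicate 1 was highest in 3 and lowest in 3 of these 9 genes in TPM. After the median TPM shift of genes of like GC content and length was subtracted, periportal markers stood at 0.36 and pericentral markers at -0.84. OAT measured 117, 239, 343 and 314 TPM, and TBX3 9.96, 38.1, 43.6 and 55.2 TPM. Replicate 1 was lowest in both, as for LGR5 and AXIN2, which are on this list too.

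Liver transcription factors stood at -0.40 in TPM and -0.17 in TMM-scaled CPM in replicate 1, near the medians of all genes, as did plasma carriers and inhibitors at -0.34 and -0.10. Genes of glucose and fuel metabolism stood lower, at -0.70 and -0.46, as did surface and transport genes at -0.64 and -0.40 and apolipoproteins at -0.59 and -0.35. Coagulation genes stood at 0.06 and 0.30 but went both ways. Replicate 1 was highest in 5 and lowest in 5 of these 12 genes in TPM, and in 7 and 5 in TMM-scaled CPM. After the median TPM shift of genes of like GC content and length was subtracted, transcription factors stood at -0.26 in replicate 1. Plasma carriers and inhibitors then stood at -0.04, glucose and fuel genes at -0.30 and surface and transport genes at -0.44. Apolipoproteins were at -0.30 and coagulation genes at 0.18. On that reading transcription factors lay nearer to apolipoproteins than to plasma carriers. Among plasma carriers and inhibitors genes went both ways. GC, the vitamin D carrier, measured 58.7, 256, 353 and 331 TPM and SERPIND1, heparin cofactor, 3.47, 27.6, 26.3 and 38.2 TPM, both lowest in replicate 1. ORM1 measured 1348, 548, 513 and 431 TPM and was highest there. SLC2A2, the liver glucose transporter, was at 6.89 TPM in replicate 1 and between 27.7 and 51.0 TPM in the others, and CDH2, N-cadherin, measured 0.716, 11.9, 11.9 and 16.2 TPM.

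**Figure D5:**
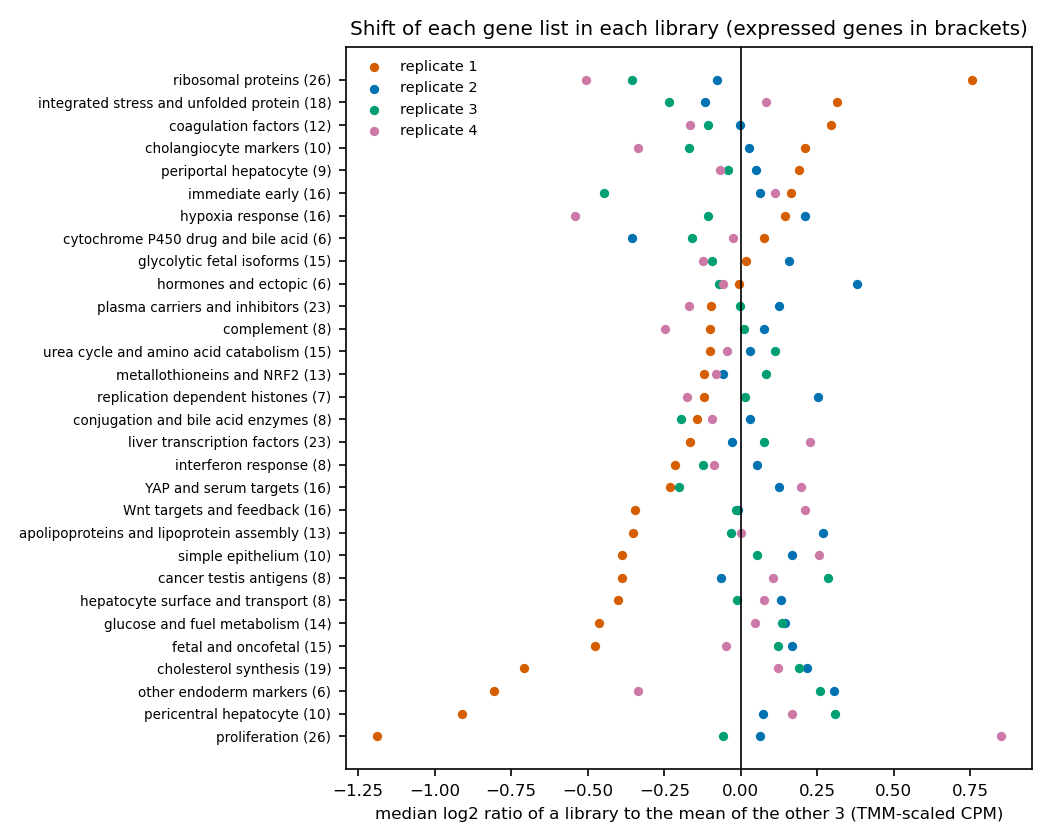
Median log2 ratio of each parental replicate to the mean of the other 3 over the expressed genes of each list with at least 5 of them, in CPM scaled by TMM factors, ordered by replicate 1. Replicate 1 ran from -1.19 for proliferation genes to 0.75 for ribosomal protein genes, a wider range than that of any other library.

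In some lists another library than replicate 1 stood out. Immediate early genes were lowest in replicate 3 in 10 of 16 cases in TPM and in 13 in TMM-scaled CPM, beside 12.5% and 20.6% of all expressed genes. The list's medians in replicate 3 were -0.35 and -0.45, where those of all genes were 0.10 and 0.0033. NR4A1, an inducible nuclear receptor, measured 103, 78.3, 51.7 and 83.4 TPM. MYC, at 34.4, 72.6, 78.2 and 104 TPM, and EGR1 were instead lowest in replicate 1. Hypoxia response genes stood at -0.39 and -0.54 in replicate 4, where the medians of all genes were 0.15 and 0.014. CA9, carbonic anhydrase 9, measured 56.4, 47.7, 27.4 and 14.5 TPM. FABP1, a fatty acid carrier of hepatocytes, measured 315, 1416, 836 and 447 TPM and was highest in replicate 2.

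At the edge of the expression rule the libraries were close to the threshold in one or more cases. The 6 genes just inside, NR1H4, LRMDA, CLIC2, TRIM58, KIF27 and B4GALNT4, had a lowest library of 1.03 CPM. The 6 just outside, ADAM11, PLTP, GHRHR, SPOCK2, TESMIN and DNAJC18, had 0.983 CPM. The table does not say whether strand was used in counting, and 78 of the 433 expressed genes listed or named here share exon bases with another expressed gene, so their levels may include its reads.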

How the data were processed

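The authors deposited raw counts per gene, without normalization, as whole numbers with differing column totals show. The submitters' processing notes name bcl2fastq, fastp 0.23.1, STAR 2.7.4 and GRCh38. The counting program, annotation and use of strand are not given in the sources used here. The 4 columns were assigned through the column names in the labels, with 0 columns left over. Identifiers were matched to GENCODE release 29 (57943 of 58206) and symbols (57495). CPM used plain column totals. TPM was computed from the deposited counts over exon-union length. TMM factors and the biological coefficient of variation came from edgeR 4.0.16 and other size factors from DESeq2 1.42.0 (R 4.3.3), checked on simulated data. There is 1 group, so no test was made. Members and the 33 gene lists were chosen with earlier results of these data known, and 1 listed histone gene (H3C2) had no match. The named genes are the 20 highest coding genes, the 5 highest of each list, liver genes with at most 3 counts, the 12 most and 8 least variable, 6 on each side of the threshold, and AXIN1, CTNNB1 and ITGB1. Others were named after their values were seen, and some genes under the rule are not reported here. Alternatives were other CPM minimums, scalings and lengths, no filter, and leaving out each library.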

Additional observations from a re-analysis of the deposited data

Results flagged for a closer look

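The share of counts in expressed genes was 99.5% in replicate 1 and 99.7% in each of the others, a gap large for a group of 4. The same comparison of gap to range, made in each gene's TPM, set 1 library apart from the other 3 in 828 of 12492 genes, or 6.63%. Chance sets a library apart in about 1 in 20 groups, with the 4 libraries counted together. In 587 of the 828 genes the library was replicate 1, in 26 replicate 2, in 66 replicate 3 and in 149 replicate 4. Of the 383 listed expressed genes, 34 were set apart, 27 of them by replicate 1. SERPING1, ORM1, CYP3A5 and SDF2L1 were high in that library, and HGD, CDX2 and CDH1 were low. Replicate 4 was set apart in 4 of the 383 listed genes, a share near what chance would give 1 library. Among these 4, F2 and TF were low there, with F2 at 705, 703, 694 and 474 TPM. TF measured 413, 437, 416 and 289 TPM.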

How the results depend on the processing

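The count of expressed genes, 12512, was between 11494 and 13569 under CPM minimums of 2 and 0.5, and 12524 with TMM-scaled totals. The count of listed genes expressed, 383, was between 358 and 401 under the same minimums. With the longest transcript as length, 1657 genes reached 100 TPM against 1634. The median CV was 20.3%, 18.1% with TMM factors and 25.4% without the expression rule. Leaving out each library in turn gave median CVs between 12.3% (without replicate 1) and 22.9%, biological coefficients of variation between 0.133 (without replicate 1) and 0.268, and between 51 (without replicate 1) and 827 genes (without replicate 2, 731 without replicate 3) with a CV of at least 50%, against 390 with all 4. The cause was not tested. The comparisons by list under other scalings, lengths and GC content, and the count of genes with a high CV under them, were added after seeing the data. With 1 group, no paired analysis was possible because no groups were compared. Depth limits statements on low genes, since 1 CPM was between 11.2 and 15.3 counts.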
